A study of Mus musculus with 6 samples.

Results

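The B-cell receptor complex and mature B-cell genes described here are Cd79a, Cd79b, Ms4a1, Cd22, Blnk, Blk, Cr2, Bank1 and Fcrla. They were picked by name for their known roles, and each of the 9 symbols matched 1 of the 14992 genes in the count table. RNA was sequenced from mouse bone marrow after transplantation: whole marrow of Dnmt3a knockout mice had been given to irradiated C57/BL6 recipients, which then received a PI3K inhibitor acting on isoforms alpha and beta (75 mg/kg) or its vehicle over 21 days. Dnmt3a is a DNA methyltransferase whose loss alters blood stem cells. Both groups carry the knockout, and there is no wild-type marrow in this comparison. The inhibitor group has 3 libraries (replicates 1, 3 and 5) and the vehicle group 3 (replicates 1, 2 and 3). The labels describe the transplanted cells as leukaemic and the samples as primary marrow cells, and do not give the deleting Cre, the age or sex of the mice, the share of host cells left or whether a library is 1 mouse. The p-values therefore measure the spread between these libraries.

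The B-cell receptor is a membrane immunoglobulin bound to a heterodimer of CD79A and CD79B, whose cytoplasmic tails carry the tyrosine motifs that start signalling. Src-family kinases such as BLK and LYN phosphorylate these tails, SYK binds them, and the adaptor BLNK links SYK to BTK and phospholipase C gamma. CD22 recruits phosphatases that dampen the signal, and CR2 (CD21) binds complement fragments on antigen and lowers the threshold for activation. In marrow, Cd79a, Cd79b, Blnk and Blk are already transcribed in pro-B and pre-B cells, where the same heterodimer serves the pre-B-cell receptor, whereas Cr2 marks mature B cells, and CD22 and CD20 (Ms4a1) become abundant on the surface as B cells mature.

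Total counts ran from 28198638 to 35299105 in the inhibitor libraries and from 33762431 to 59384880 in the vehicle libraries. Dnmt3a stood at 20.2, 15.4 and 15.5 CPM (counts scaled to library size and composition) in inhibitors 1, 3 and 5 and at 24.9, 17.3 and 18.8 CPM in vehicles 1, 2 and 3 (log2 fold change -0.25, not called), and a count over the whole gene does not check the deletion. Vehicle 1 lay apart from the other vehicles in summed macrophage marker level, as given with the cell type markers. The B-lineage markers Cd79a, Cd79b, Ms4a1, Pax5 and Ebf1 were detected in all 6 libraries.

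Promoter sequence is shown for the pair of members with the closest profiles among the 5 genes with positive fold changes, Cd79a with Fcrla, and among the 4 with negative ones, Cd22 with Cr2. The sequences are RefSeq's (GRCm38.p6), written 5′ to 3′ on the strand of the gene, and 6 of the 9 members matched an entry. Each window was the 250 bases before the RefSeq start, cut back where an annotated GENCODE exon covers it; the Cd22 stretch lies inside the longer GENCODE span of that gene. Capitals mark matches to the EBF1 palindrome (TCCC and GGGA around a pair of free bases) and to the PU.1 core GAGGAA or its reverse complement TTCCTC.
Cd79a (chr7:24897247-24897380, plus strand): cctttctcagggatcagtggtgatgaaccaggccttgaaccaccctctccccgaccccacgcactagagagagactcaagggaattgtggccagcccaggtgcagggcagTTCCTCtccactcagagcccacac
Fcrla (chr1:170927584-170927833, minus strand): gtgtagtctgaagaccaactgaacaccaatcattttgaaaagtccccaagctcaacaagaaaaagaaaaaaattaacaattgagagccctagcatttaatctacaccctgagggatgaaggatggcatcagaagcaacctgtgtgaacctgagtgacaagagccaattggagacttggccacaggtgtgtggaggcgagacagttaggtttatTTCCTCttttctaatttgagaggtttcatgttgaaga
Cd22 (chr7:30879029-30879176, minus strand): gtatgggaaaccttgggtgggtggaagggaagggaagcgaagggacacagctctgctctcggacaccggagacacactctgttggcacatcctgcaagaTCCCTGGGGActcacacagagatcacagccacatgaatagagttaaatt
Cr2 (chr1:195176720-195176969, minus strand): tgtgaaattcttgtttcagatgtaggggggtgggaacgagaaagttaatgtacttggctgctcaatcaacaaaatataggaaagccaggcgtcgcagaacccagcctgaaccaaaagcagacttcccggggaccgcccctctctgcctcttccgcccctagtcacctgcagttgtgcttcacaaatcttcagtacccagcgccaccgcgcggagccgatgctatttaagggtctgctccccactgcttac

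On both strands of the 250-base windows, the PU.1 core was found once in Cd79a and once in Fcrla, and in 23.3% of all 32851 promoter windows. The EBF1 palindrome was found in Cd22 (match TCCCTGGGGA, beginning 49 bases before the start) and in 0.779% of all windows. The octamer ATGCAAAT (reverse complement ATTTGCAT) was found once in Blnk, beginning 130 bases before the start, and in 1.6% of all windows. The Blnk window lies inside the longer GENCODE span of that gene. The E-box CANNTG, which 66.2% of all windows hold, was found in each of the 6 windows, from 1 match in Bank1 to 4 in Fcrla. The FOXO core GTAAACA or its reverse complement TGTTTAC, present in 3.17% of all windows, was not among these letters in any of the 6. These matches describe letters in a window only, and no match overlapped another. Only exact matches were counted, so a binding site that departs from these letters would be missed in any window.

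The 9 genes split into 5 with higher and 4 with lower mean levels in inhibitor-treated marrow. Cd79a, Cd79b, Blnk, Blk and Fcrla had positive log2 fold changes between 0.93 and 1.53, and Ms4a1, Cd22, Cr2 and Bank1 negative ones between -1.37 and -0.61. None of the 9 passed the test over all 12806 tested genes (edgeR quasi-likelihood, Benjamini-Hochberg adjusted p under 0.05), which called 1.83% of all genes, 0.633% higher and 1.19% lower. Unadjusted p-values were under 0.05 for 3 members with higher and 2 with lower levels (Cd79a, Cd79b and Blnk; Cd22 and Bank1), and in the whole table for 9.68% and 11.9%. With DESeq2, Cd79a, Cd79b and Blnk passed, so 3 members were called higher and 0 lower, against 12.1% of the genes it tested, 4.91% higher and 7.24% lower. This set depended on single libraries. Without vehicle 1 or without inhibitor 5, DESeq2 called Blnk higher and Ms4a1 and Cd22 lower, but not Cd79a or Cd79b. Without vehicle 1 it also called Cr2 lower. The fits without vehicle 1 and without inhibitor 5 called 1892 and 1006 genes. All 9 passed the filter on low counts. In bulk marrow, fewer cells of a type and less RNA per cell cannot be told apart.

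**Figure D1:**
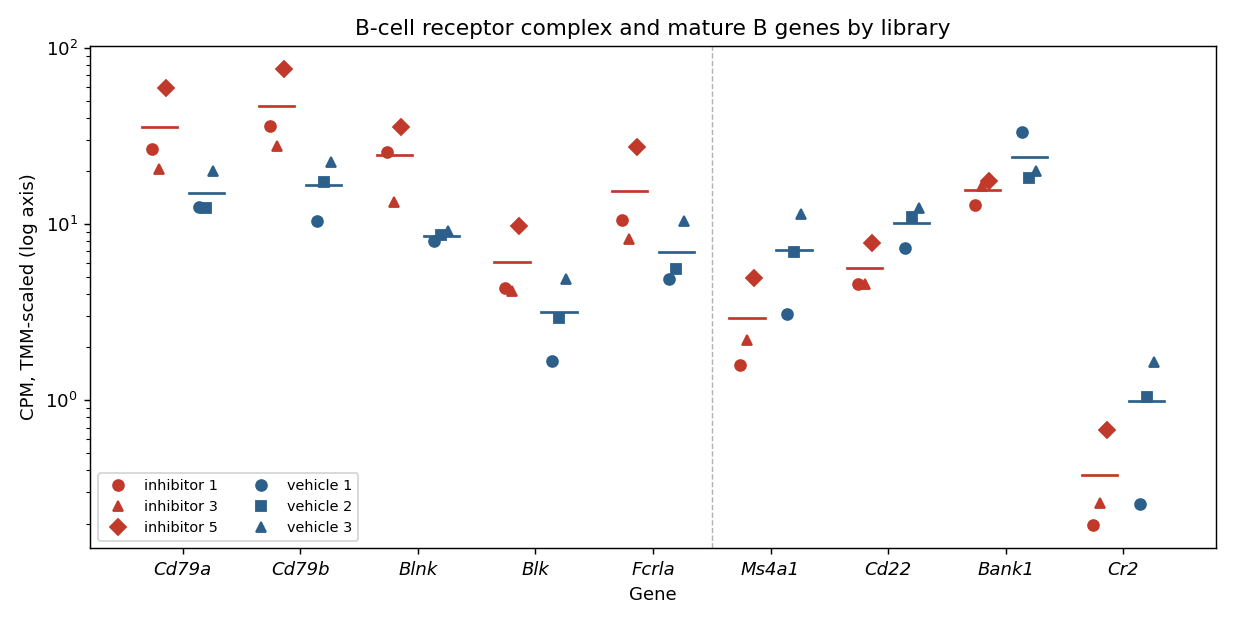
CPM of the 9 genes (log axis) in each library, inhibitor libraries in red to the left of vehicle libraries in blue, with horizontal bars for group means; marker shapes give the replicate number. Left of the dashed line are the 5 genes with higher means in inhibitor libraries, and Blnk is the gene whose vehicle values lie closest together (7.98 to 9.11 CPM).

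The receptor heterodimer was read first. Cd79a (chromosome 7, 24897381 to 24902197, GRCm38) stood at 26.9, 20.5 and 59.2 CPM in inhibitors 1, 3 and 5, against 12.5, 12.3 and 20.2 CPM in vehicles 1, 2 and 3. Cd79b (chromosome 11, 106311341 to 106314762) stood at 36.2, 27.7 and 76.2 CPM in inhibitors 1, 3 and 5, against 10.4, 17.3 and 22.5 CPM in vehicles 1, 2 and 3. For both genes every inhibitor library lay above every vehicle library, and inhibitor 5 was well above the other inhibitor libraries. The lowest inhibitor value and the highest vehicle value of Cd79a were nearly level. By edgeR, with 3 libraries a group, Cd79a had log2 fold change 1.24 ± 0.41 SE (adjusted p = 0.144) and Cd79b 1.48 ± 0.43 SE (adjusted p = 0.107). Without inhibitor 5 the values were 0.66 and 0.93, so both depended strongly on that library. The authors' deposited table, for which no test is named, lists both as higher, with an adjusted p of 0.0313 for Cd79a and 0.00923 for Cd79b. That table calls 10.8% of its genes with an adjusted p, 4.24% higher and 6.57% lower, and 3 of the 9 members, all higher.

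Among the signalling proteins downstream of the receptor, the adaptor gene Blnk (chromosome 19, 40928927 to 40994535) had the smallest p of the 9. It stood at 25.5, 13.4 and 35.5 CPM in inhibitors 1, 3 and 5, against 7.98, 8.64 and 9.11 CPM in vehicles 1, 2 and 3. The groups did not overlap, and the inhibitor libraries were far more spread than the vehicles. By edgeR its log2 fold change reached 1.53 ± 0.33 SE (adjusted p = 0.0625). Vehicle 1 lies apart from the other vehicles in macrophage markers. Without it, Blnk passed with a log2 fold change of 1.48 (edgeR adjusted p = 0.048). That fit called 1034 of 12946 genes. With any other single library left out, the edgeR adjusted p of Blnk ran from 0.101 to 0.193. DESeq2 called Blnk over all 6 libraries. The authors' deposited table gives it an adjusted p of 0.00037.

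Blk (chromosome 14, 63372836 to 63417037), a Src-family kinase of B cells, stood at 4.36, 4.17 and 9.71 CPM in inhibitors 1, 3 and 5, against 1.68, 2.93 and 4.90 CPM in vehicles 1, 2 and 3. Vehicle 3 lay above inhibitors 1 and 3, so the groups overlap. Its log2 fold change was 0.93 ± 0.48 (SE; edgeR adjusted p = 0.303), and 0.42 without inhibitor 5. Fcrla (chromosome 1, 170917576 to 170927583), an Fc receptor-like protein kept inside B cells, stood at 10.6, 8.26 and 27.5 CPM in inhibitors 1, 3 and 5, against 4.90, 5.58 and 10.4 CPM in vehicles 1, 2 and 3. Its groups also overlap, through inhibitor 3 and vehicle 3. The log2 fold change of Fcrla was 1.15 ± 0.50 (SE; edgeR adjusted p = 0.243), and 0.43 without inhibitor 5. A processed pseudogene, Gm2962, lies within Fcrla on the same strand, so some of its reads may not be told apart.

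Bank1 (chromosome 3, 136053363 to 136326066), a scaffold that binds Src-family kinases after receptor triggering, stood apart from the other signalling genes. It had 12.9, 16.5 and 17.6 CPM in inhibitors 1, 3 and 5, against 33.4, 18.4 and 20.1 CPM in vehicles 1, 2 and 3. All inhibitor libraries lay below all vehicles, but vehicles 2 and 3 were close to inhibitors 3 and 5 and vehicle 1 was far above. The log2 fold change was -0.61 ± 0.26 (SE; edgeR adjusted p = 0.227), and -0.30 without vehicle 1. Across the 9 genes, 4 had groups that did not overlap in CPM, 3 of them with the inhibitor above (Cd79a, Cd79b and Blnk) and 1 below (Bank1). Over all tested genes 30.7% did not overlap, 14.4% with the inhibitor above and 16.2% below.

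Ms4a1, Cd22 and Cr2, which encode surface proteins, had negative log2 fold changes and did not pass the test. Ms4a1 (chromosome 19, 11249675 to 11266241), which encodes CD20, stood at 1.59, 2.19 and 4.98 CPM in inhibitors 1, 3 and 5, against 3.08, 6.99 and 11.4 CPM in vehicles 1, 2 and 3. Only inhibitor 5 and vehicle 1 crossed. The log2 fold change was -1.29 ± 0.57 (SE; edgeR adjusted p = 0.246), ranging from -1.93 without inhibitor 5 to -0.78 without vehicle 3. Cd22 (chromosome 7, 30865402 to 30880342), the inhibitory lectin, stood at 4.59, 4.58 and 7.81 CPM in inhibitors 1, 3 and 5, against 7.30, 10.99 and 12.3 CPM in vehicles 1, 2 and 3. Inhibitor 5 was just above vehicle 1, and all other inhibitor values were below all vehicles. Its log2 fold change was -0.85 ± 0.30 (SE; edgeR adjusted p = 0.163). Without vehicle 1, Cd22 passed at -1.04 (edgeR adjusted p = 0.047), in the fit that called 1034 of 12946 genes. With any other single library left out, its edgeR adjusted p ran from 0.179 to 0.431.

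Cr2 (chromosome 1, 195136811 to 195176716), the complement receptor of mature B cells, was the scarcest member. It had 6, 7 and 24 reads in inhibitors 1, 3 and 5, against 9, 38 and 104 reads in vehicles 1, 2 and 3, or 0.195, 0.26 and 0.679 CPM in the inhibitor libraries against 0.256, 1.05 and 1.65 CPM in the vehicle libraries. Both groups reach down to a handful of reads, and inhibitor 5 lay above vehicle 1. The log2 fold change was -1.37 ± 0.74 with a 95% interval from -3.11 to 0.36 (edgeR adjusted p = 0.32), ranging from -2.13 without inhibitor 5 to -0.76 without vehicle 3. Follicular dendritic cells also express Cr2. Of 6 listed markers 5 were tested, all with negative log2 fold changes (Enpp2 at -0.22 and Cxcl13 at -2.97 among them). Of these, 0 were called by edgeR (1 lower at an unadjusted p below 0.05). They summed to 80.4 to 92.8 CPM in inhibitor libraries and 102 to 187 CPM in vehicle libraries. Ltbr held much of these sums, averaging 61.3 CPM in inhibitor libraries and 77.1 CPM in vehicle libraries. Cxcl13 stood at 71.1 CPM in vehicle 1 but at 9.44 and 9.51 CPM in vehicles 2 and 3. Its inhibitor values ran from 3.61 to 4.09 CPM. Enpp2, Mfge8 and Clu overlapped between the groups. A change in follicular dendritic cells, and their part in the Cr2 values, was not tested. Under limma voom with sample quality weights, Ms4a1, Cd22 and Cr2 passed (adjusted p = 0.00839, 0.00419 and 0.0148). Those weights ran from 0.161 for vehicle 1 to 4.4 for inhibitor 3. That fit called 2857 of the 12806 tested genes. Antisense genes are annotated over Ms4a1, Cd22 and Bank1, and since the library chemistry does not mark strand, reads from them cannot be told apart.

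**Figure D2:**
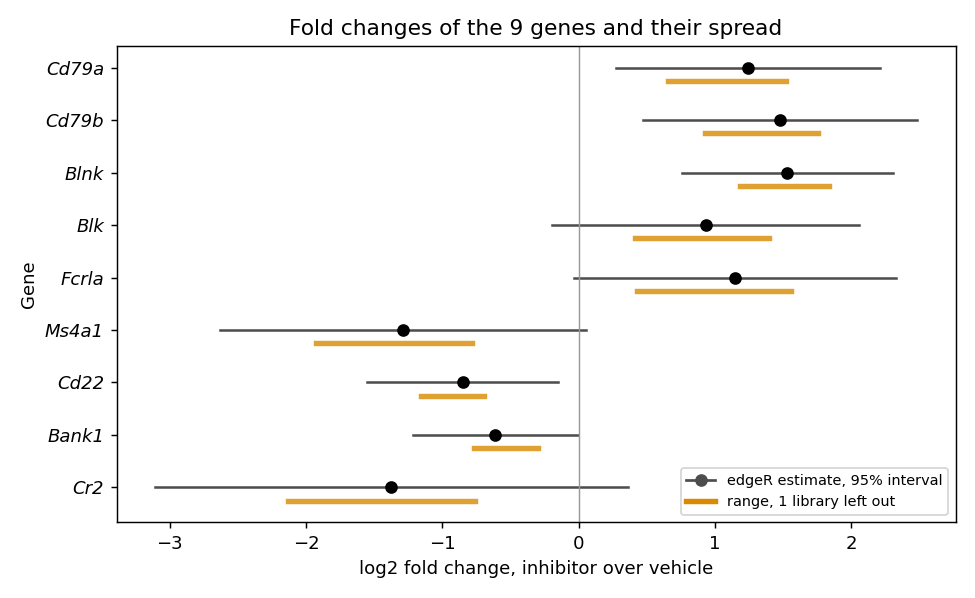
Log2 fold change of each gene, inhibitor over vehicle, with the 95% interval of the edgeR estimate (thin line) and the range of the 6 estimates with 1 library left out (thick line). The intervals of Cd79a, Cd79b, Blnk, Cd22 and Bank1 do not include 0, and the interval of Bank1 ends at -0.00723.

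Libraries of one group differed in level across the whole set. Inhibitor 5 had the highest CPM of the inhibitor libraries for 9 of 9 members, and vehicle 3 the highest of the vehicle libraries for 8 of 9. Vehicle 1 was the lowest vehicle for 7 and the highest for 1, Bank1. The 9 genes together summed to 123, 97.6 and 239 CPM in inhibitors 1, 3 and 5, against 81.4, 84.2 and 113 CPM in vehicles 1, 2 and 3. Because the members share libraries in this way, the ratio of 2 members inside a library was also compared.

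Relative to Cd79a in the same library, the partner Cd79b stood at 135%, 135% and 129% of the Cd79a counts in inhibitors 1, 3 and 5, against 83.3%, 140% and 112% in vehicles 1, 2 and 3. Blnk, Blk and Fcrla also kept overlapping ratios between the groups. Ms4a1 reached 5.93%, 10.7% and 8.42% of the Cd79a counts in inhibitors 1, 3 and 5, against 24.7%, 56.6% and 56.5% in vehicles 1, 2 and 3. Cd22 reached 17.1%, 22.4% and 13.2% in inhibitors 1, 3 and 5, against 58.6%, 89.0% and 61.1% in vehicles 1, 2 and 3. For both, every inhibitor library was below every vehicle library, including the pair that crossed in CPM. Cr2 reached 0.726%, 1.27% and 1.15% in inhibitors 1, 3 and 5, against 2.06%, 8.50% and 8.20% in vehicles 1, 2 and 3, and Bank1 47.9%, 80.7% and 29.7% in the inhibitor libraries against 268%, 149% and 99.6% in the vehicle libraries.

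On the log2 scale, with 0.5 CPM added to both genes, these differences of the ratio (inhibitor minus vehicle) were -2.23 for Ms4a1, -1.91 for Cd22, -1.78 for Cr2 and -1.67 for Bank1, each with an exact two-sided permutation p of 0.1, the smallest that 3 against 3 allows. The same difference was 0.28 for Cd79b, 0.27 for Blnk, -0.13 for Fcrla and -0.27 for Blk, with unadjusted exact permutation p of 0.3 to 0.5, among the 8 ratios compared. Since Cd79a itself had more reads with the inhibitor, most genes were lower relative to it: the median difference over 12805 genes was -1.10, 46.4% of them lay below in every inhibitor library and 0.172% above. The count of 4 of 8 is near that share and is no result about these genes. Of the 12805 genes, 455 had a difference at least as negative as that of Ms4a1 and 1320 one at least as negative as that of Bank1, while 204 had one at or above that of Fcrla.

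**Figure D3:**
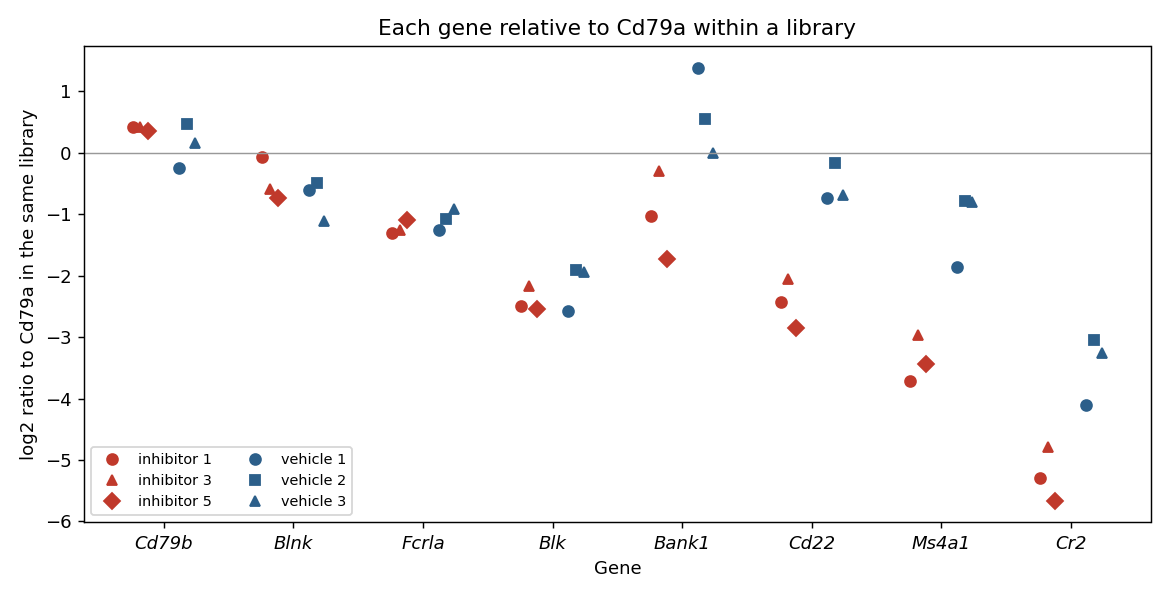
Log2 ratio of each gene to Cd79a within the same library (0.5 CPM added to both), inhibitor libraries in red to the left of vehicle libraries in blue. Cd79b, Blnk, Fcrla and Blk overlap between groups, while Bank1, Cd22, Ms4a1 and Cr2 are lower in all inhibitor libraries, which 46.4% of all tested genes also are.

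Compared per length, as RPKM (CPM divided by gene length in kilobases), the levels of the 9 genes spanned a wide range. In inhibitor libraries the order was Cd79b (39.0 ± 21.6 RPKM, SD, n = 3), Cd79a (26.8 ± 15.6), Blnk (11.8 ± 5.27), Fcrla (8.95 ± 6.10), Bank1 (4.82 ± 0.759), Blk (2.46 ± 1.27), Ms4a1 (1.42 ± 0.879), Cd22 (1.28 ± 0.422) and Cr2 (0.0609 ± 0.0423). In vehicle libraries it was Cd79b (13.96 ± 5.09 RPKM, SD, n = 3), Cd79a (11.3 ± 3.38), Bank1 (7.38 ± 2.53), Blnk (4.09 ± 0.272), Fcrla (4.03 ± 1.74), Ms4a1 (3.48 ± 2.02), Cd22 (2.31 ± 0.589), Blk (1.28 ± 0.656) and Cr2 (0.159 ± 0.113). The ranges of neighbours in this order overlapped except for Bank1 over Blk and Cd22 over Cr2 in inhibitor libraries, and Bank1 over Blnk and Blk over Cr2 in vehicle libraries. By group means the heterodimer genes led in both groups and Cr2 came last in both, but in vehicle 1 Bank1 (10.3 RPKM) stood above Cd79a (9.38 RPKM) and Cd79b (8.66 RPKM).

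Profiles over the 6 libraries were compared by the root mean square distance between log2 levels, each gene centred on its own mean. The closest pair of members was Cd79a and Fcrla (0.135), and Cd22 and Cr2 were the closest of the 4 lower genes (0.243). Distances ran from 0.135 to 0.491 among the 5 genes with positive fold changes, from 0.243 to 0.855 among the other 4, and from 0.778 to 1.38 between a gene of one set and a gene of the other. The sets were formed from the fold changes, so these distances only describe them. Of 9689 other genes averaging 5 CPM or more, those nearest the median profile of the 9 were Bcl7a (0.145), Aff3 (0.249), Trib2 (0.263), Sbk1 and Irf4 (0.286 each), Tifa (0.288), Arntl (0.289) and Glcci1 (0.299). The median follows the larger set. Measured from single members, a choice made after their values were seen, the nearest gene to Cd79a was Pou2af1 (0.127), a co-activator of octamer-binding factors in B cells, and the nearest to Bank1 was Slc20a2 (0.0413), whereas no gene came closer to Ms4a1 than Abcg3 (0.496).

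Genes of the rest of the receptor pathway split evenly in sign. Of 20 activating signalling genes, 10 had positive and 10 negative log2 fold changes (median 0.0225, against 0.000931 over all tested genes), and edgeR called 0 higher and 1 lower. Vav2, a guanine nucleotide exchange factor, and Fyn, a Src-family kinase, had log2 fold changes of -0.87 and -0.75 without passing (edgeR adjusted p = 0.0559 and 0.0665). Lyn, Syk and Btk, receptor-proximal kinases that myeloid cells also express, had log2 fold changes of -0.29, 0.23 and 0.15.

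Of 16 inhibitory signalling genes 15 were tested and 0 were called by edgeR (median -0.0487), where unadjusted p-values below 0.05 numbered 2 higher and 1 lower. Siglecg, a sialic acid-binding inhibitor related to CD22, was opposite in sign to Cd22, with log2 fold change 1.21 ± 0.38 SE by edgeR (adjusted p = 0.13). Among 15 tested genes of mature B-cell surface and antigen handling, edgeR called 0 higher and 1 lower (median -0.26). Cd180, a Toll-like receptor homologue of B cells and myeloid cells, fell to 9.75 ± 1.90 CPM in inhibitor libraries, against 36.4 ± 7.60 CPM in vehicle libraries (SD, n = 3 each; log2 fold change -1.90 ± 0.22, SE; edgeR adjusted p = 0.024). Its partner Ly86, the tetraspanin gene Cd37 and the costimulatory receptor gene Cd40 had log2 fold changes of -0.77, 0.64 and -1.27 without passing. The median of this list turned positive, at 0.406, when at least 5 CPM in 3 libraries was required.

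Of 11 early B-cell genes, edgeR called 4 higher and 0 lower, with a median of 2.51, while the 9 members had a median of 0.93 from values of both signs. Under limma voom with quality weights these medians were 1.59 and 0.33. Igll1, of the surrogate light chain, stood at 17.5, 9.64 and 34.8 CPM in inhibitors 1, 3 and 5, against 1.20, 2.10 and 3.15 CPM in vehicles 1, 2 and 3, with the same order of libraries within each group as Cd79b. The others that rose were its partners Vpreb1 and Vpreb2, near-identical copies whose counts are uncertain because reads may be split between them, and the interleukin 7 receptor gene Il7r. Of 14 B-lineage transcription factor genes edgeR called 0 (unadjusted p below 0.05 for 6 higher and 1 lower; median 0.251): Ebf1 and Pou2af1, which drive the early programme and octamer-dependent transcription, reached 2.04 ± 0.50 and 1.36 ± 0.35 SE on the log2 scale (adjusted p = 0.0782 and 0.0868 by edgeR), Lef1 1.35 ± 0.32 SE and Irf8 -0.64 ± 0.19 SE. Irf8 averaged 141 CPM in inhibitor libraries and 220 CPM in vehicle libraries, against 33.4 and 8.06 CPM for Ebf1. Which cells gave the Irf8 reads was not tested.

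**Figure D4:**
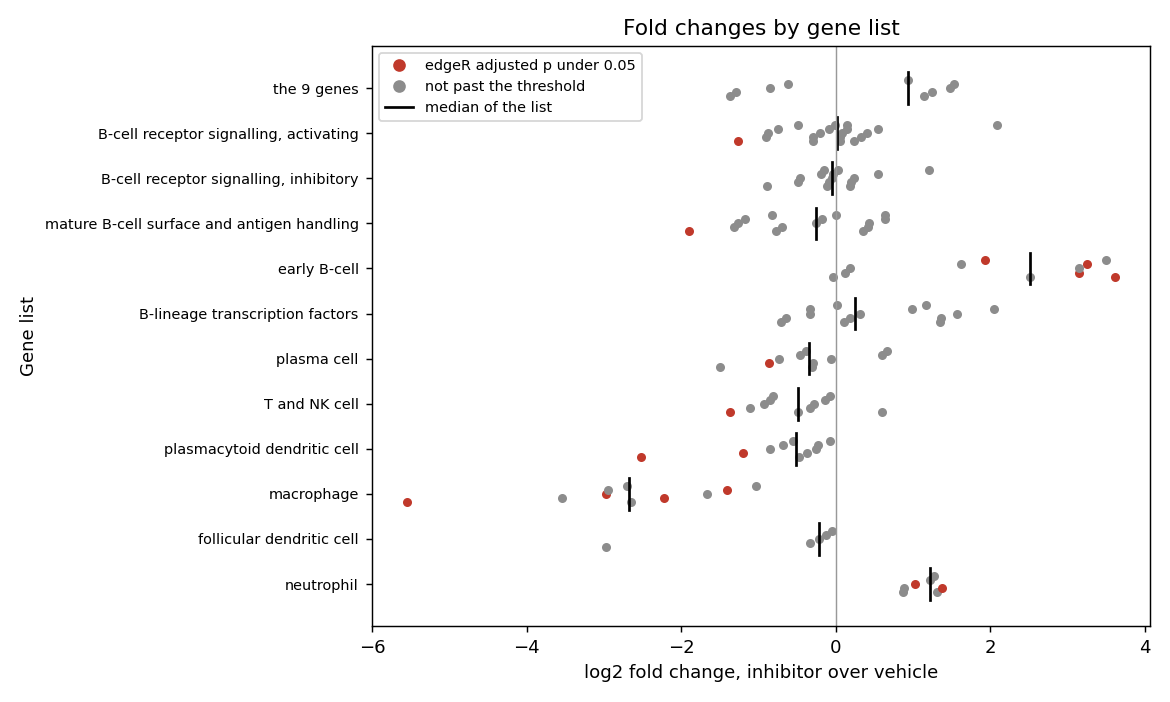
Log2 fold change, inhibitor over vehicle, of each tested gene by list, with genes past edgeR's adjusted p of 0.05 in red, other genes in grey and the median of each list as a vertical line. The 9 genes lie on both sides of 0 and none is red; of the 11 early B-cell genes 10 lie above 0, with a median of 2.51.

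Markers of other cells that express some members were read beside them. Plasmacytoid dendritic cell genes, whose cells transcribe several B-cell signalling genes, summed to 206 to 257 CPM in inhibitor libraries and 311.5 to 344 CPM in vehicle libraries, with 10 of 10 log2 fold changes negative and 2 called lower, Klk1 (-2.51 ± 0.38; edgeR adjusted p = 0.0364) and Irf7 (-1.20 ± 0.22; adjusted p = 0.0463). Klk1 rests on 5 to 8 reads in inhibitor libraries and 35 to 100 in vehicle libraries. Siglech, Ccr9 and Cox6a2 of the same list had log2 fold changes of -0.25, -0.85 and -0.56 without passing. Plasma cell genes summed to 512 to 533 CPM in inhibitor libraries and 621 to 1124 CPM in vehicle libraries, with 1 of 10 called lower, Txndc5. Of their log2 fold changes 8 were negative and 2 positive (Mzb1 at 0.66 and Fkbp11 at 0.60). Jchain made up much of the highest sum, at 670 CPM in vehicle 1 against 232 and 183 CPM in vehicles 2 and 3. T and NK cell genes summed to 200 to 206 CPM in inhibitor libraries and 190 to 278 CPM in vehicle libraries, with 1 of 11 called lower, Prf1. Of these 11 log2 fold changes 10 were negative and 1 positive, Nkg7 at 0.60 (median of the list -0.49). Nkg7 held 69.4 to 78.6 CPM of the inhibitor sums and 40.9 to 59.6 CPM of the vehicle sums. None of the listed markers in the table was at 0 in all libraries. Their part in the member values was not tested.

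Myeloid marker sums also differed. Macrophage genes summed to 471, 713 and 652 CPM in inhibitors 1, 3 and 5, against 6317, 1765 and 1911 CPM in vehicles 1, 2 and 3, with 4 of 10 called lower (Cd5l, Mertk, Spic and Adgre1). Neutrophil genes summed to 82020 to 91930 CPM in inhibitor libraries and 26580 to 46070 CPM in vehicle libraries, with 2 of 7 called higher (Camp and Elane). Vehicle 1, the highest library for macrophage genes, was also the highest for Bank1 and the lowest for Cd79b, Blnk, Blk, Fcrla, Ms4a1, Cd22 and Cr2 among the vehicles. The part of macrophage content in these values was not tested. Without vehicle 1 all 9 members kept their sign. None of the list calls given here remained in edgeR fits without inhibitor 1, 3 or 5 or without vehicle 3, where edgeR called 0 genes in all.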

How the data were processed

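Groups of the 6 libraries follow the treatment label. Total RNA came from a micro column kit, per the labels' protocols, and was amplified with a SMART-Seq v4 kit and made into libraries with Nextera XT, a chemistry without strand marking. Per the submitters' processing notes, the aligner was STAR, the build mm10 and the counter featureCounts, without versions. The authors deposited 1 table of raw read counts for 14992 genes, with gene length. Further deposited columns give the authors' comparison: a fold ratio, its log2 value, and the raw and adjusted p-value. Empty lines between genes (14992) were dropped.

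The test was edgeR 4.0.16 (R 4.3.3) after filterByExpr, which kept 12806 genes and left out 2186, with scaling by TMM and a quasi-likelihood F test on group, with Benjamini-Hochberg adjustment over all tested genes. The biological coefficient of variation was 25.2%. A standard error is the log2 fold change divided by the square root of F. A CPM of 0.0477 to 0.112 corresponds to 3 reads, and intervals cover the fitted spread. The members, 12 gene lists and tests were chosen with earlier results of these data known. Named were all 9 members, each called list gene where there were 6 or fewer, up to 4 list genes with the smallest p, and the 8 nearest profiles. Lyn, Syk, Btk and some cell type markers were named besides, after their values were seen. Immunoglobulin constant region genes, Trac, Madcam1 and Ly6g were not analysed here. Some genes that the naming rule picks are not reported here. Gene positions are from GENCODE M21 (GRCm38). The steps were tested on simulated counts. Alternatives were DESeq2 1.42.0 (size factors and Wald test), upper-quartile scaling, limma 3.58.1 voom with and without quality weights, other filters, a replicate block and each library left out.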

Additional observations from a re-analysis of the deposited data

How the results depend on the processing

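Over the alternatives run, no member changed sign in any fit that tested it (at least 5 CPM in 3 libraries left out Ms4a1, Blk and Cr2), and 0 members were called by edgeR with DESeq2 size factors, upper-quartile scaling, either other filter or the replicate block, and by limma voom. There were 3 under the DESeq2 Wald test (Cd79a, Cd79b and Blnk), 3 under limma voom with quality weights (Ms4a1, Cd22 and Cr2), 0 to 2 by edgeR with 1 library left out and 2 to 4 by DESeq2 so. The members that DESeq2 called changed with the library left out. Without vehicle 1 they were Blnk (higher) and Ms4a1, Cd22 and Cr2 (lower). Without inhibitor 5 they were Blnk (higher) and Ms4a1 and Cd22 (lower). Genes called numbered 234 by edgeR, 1554 by DESeq2, 85 by limma voom, 2857 with quality weights and 7 with the replicate block, and called list genes 16, 56, 6, 60 and 2 in that order. With 1 library left out, edgeR called 0 to 1034 genes and 0 to 38 list genes. It called 0 genes without inhibitor 1, 3 or 5 or vehicle 3, where 1832 to 2398 genes had an unadjusted p under 0.05, and 1034 without vehicle 1. DESeq2 called 952, 749 and 1006 genes (42, 36 and 45 list genes) without inhibitors 1, 3 and 5, and 1892, 1408 and 1079 (60, 44 and 49) without vehicles 1, 2 and 3. The block rests on replicate numbers 1 and 3, which both groups share. Same-numbered libraries did not deviate together (correlations -0.495 and -0.0867). Pairs with different numbers ran from -0.447 to 0.473, so these correlations cannot decide whether same-numbered libraries were paired. The block left the members' calls at 0.

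With at least 5 CPM in 3 libraries, the median of the mature surface list turned to 0.406; with 1 library left out it ran from -0.732 to 0.0724 by edgeR, positive without inhibitor 3 (0.0296; 0.0366 by DESeq2) and without vehicle 3 (0.0785 by DESeq2). The activating list's median turned to -0.108 with quality weights and ran from -0.142 to 0.135 with 1 library left out, negative without inhibitor 1 (-0.0973; -0.0989 by DESeq2) and vehicle 1 (-0.152 by DESeq2). The inhibitory list's median turned to 0.049 with the block, and the plasma cell median ran from -0.542 to 0.0444, positive without vehicle 1 (0.0308 by DESeq2). Enpp2 turned to 0.107 by limma voom and 0.769 with quality weights, and ran from -0.604 to 0.664 with 1 library left out (0.667 by DESeq2 without vehicle 1). The cause was not tested. The early B-cell median was 1.59 and that of the members 0.334 with quality weights. Cr2 rests on 6 to 104 reads a library.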
